A study of Mus musculus with 14 samples.

Results

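The genes described here are 42 genes of mitosis and of the G2/M step that leads into it, in primary mouse cells with and without H3f3a. They were taken by symbol from a list, and the expected read numbers of their transcripts were summed per gene. All 42 were found among the 35519 genes of the GENCODE M21 annotation. The list was set by name, with no threshold on a measured value, but with earlier results of these data known.

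The study's title names a knockout-first model of H3f3a, one of the genes for the histone variant H3.3. Background on such alleles is that an inserted cassette stops the transcript before any conditional deletion is made. The libraries came from 3 KO and 3 WT neurosphere lines and from 5 KO and 3 WT MEF (mouse embryonic fibroblast) lines, each given as an independent line and none treated. Neurospheres are floating cultures of neural stem and precursor cells, started here from heads of embryos at E13.5, and the MEFs were grown from the remaining body of such embryos without its internal organs. The labels give no strain, sex, passage or culture time, and the KO state is labelled only as KO. Each line gave 1 library of 3′ end reads, so values are written as CPM, counts scaled to a common library total, which are not divided by transcript length.

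Mitosis begins when the kinase CDK1, bound to cyclin B, becomes active, after which chromosomes condense, the spindle forms and kinetochores attach to it. A checkpoint holds the anaphase promoting complex inactive until all kinetochores are attached, and its release by CDC20 frees the sister chromatids before cytokinesis. The mRNAs of these proteins are transcribed mainly in G2 and M, so their level in a bulk culture is commonly read as a sign of how many cells divide. In resting cells the DREAM complex, with the pocket protein p130 and the MuvB core, keeps these genes silent, and in dividing cells B-MYB and FOXM1 join MuvB to activate them. LIN54 of MuvB contacts promoter elements called CHR (cell cycle genes homology region), and the factor NF-Y contacts CCAAT boxes nearby.

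The libraries held 1669867 to 3296493 counts in genes, with KO neurospheres 2 the shallowest of all and KO MEFs 3 the shallowest of the MEFs. H3f3a itself had 59.1, 70.9 and 26.2 CPM in KO neurospheres 1 to 3, against 2417, 2082 and 1969 CPM in WT neurospheres 1 to 3, and 16.9, 18.8, 18.5, 7.29 and 15.1 CPM in KO MEFs 1 to 5, against 847, 1427 and 855 CPM in WT MEFs 1 to 3. The KO values lay far below the WT values in both cell types. The summed level of 15 fibroblast markers ran from 1404 to 2276 CPM in KO neurospheres, 908 to 2078 CPM in WT neurospheres, 20654 to 28064 CPM in KO MEFs and 22848 to 25695 CPM in WT MEFs. That of 15 neural stem and precursor markers ran from 11102 to 16150 CPM in KO neurospheres, 9673 to 14719 CPM in WT neurospheres, 457 to 796 CPM in KO MEFs and 577 to 657 CPM in WT MEFs. The labelled cell types thus carried their own markers.

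The promoter sequences of 8 members are shown because the module is known for shared elements beside the start site, and these members span the range of spread between lines. RefSeq promoter windows of 300 bases on GRCm38.p6 were on hand for 34 of the 42 members, and those of Ccna2, Aurkb, Incenp, Kif20a, Tpx2, Dlgap5, Smc4 and Cdc25c were not used here. The 150 bases before each annotated start are printed on the strand of the gene, with every TTTGAA or TTTAAA (the CHR letters) and every CCAAT in capitals. A match on the other strand reads TTCAAA or ATTGG, since TTTAAA is its own complement. Top2a and Cdk1 varied most between neurosphere lines, Bub3 varied least, and Nuf2 varied widely although its stretch holds none of these letters.
Top2a (chr11:99024190-99024339, minus strand): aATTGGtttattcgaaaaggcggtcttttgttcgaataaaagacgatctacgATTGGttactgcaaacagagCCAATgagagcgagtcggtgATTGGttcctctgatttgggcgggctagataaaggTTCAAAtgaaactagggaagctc
Cdk1 (chr10:69352913-69353062, minus strand): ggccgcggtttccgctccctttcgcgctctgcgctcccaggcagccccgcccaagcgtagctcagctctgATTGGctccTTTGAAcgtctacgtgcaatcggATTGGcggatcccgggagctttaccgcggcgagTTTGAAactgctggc
Ccnb1 (chr13:100786487-100786636, minus strand): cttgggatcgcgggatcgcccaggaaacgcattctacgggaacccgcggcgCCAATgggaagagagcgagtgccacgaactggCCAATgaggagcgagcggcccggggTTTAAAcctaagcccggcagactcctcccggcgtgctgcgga
Cdc20 (chr4:118437344-118437493, minus strand): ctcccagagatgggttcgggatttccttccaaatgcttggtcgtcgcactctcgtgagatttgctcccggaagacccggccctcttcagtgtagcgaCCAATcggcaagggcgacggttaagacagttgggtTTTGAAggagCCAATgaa
Ube2c (chr2:164769779-164769928, plus strand): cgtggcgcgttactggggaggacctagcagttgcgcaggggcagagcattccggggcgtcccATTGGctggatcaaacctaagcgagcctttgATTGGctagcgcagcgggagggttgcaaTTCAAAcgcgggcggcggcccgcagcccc
Plk1 (chr7:122159285-122159434, plus strand): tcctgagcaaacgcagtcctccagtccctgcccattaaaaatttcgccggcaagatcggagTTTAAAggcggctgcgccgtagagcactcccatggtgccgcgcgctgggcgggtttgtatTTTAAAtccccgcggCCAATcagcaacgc
Bub3 (chr7:131560220-131560369, plus strand): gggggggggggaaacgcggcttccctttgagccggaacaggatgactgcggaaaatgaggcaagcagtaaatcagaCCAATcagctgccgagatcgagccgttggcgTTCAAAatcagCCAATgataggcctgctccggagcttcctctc
Nuf2 (chr1:169531465-169531614, minus strand): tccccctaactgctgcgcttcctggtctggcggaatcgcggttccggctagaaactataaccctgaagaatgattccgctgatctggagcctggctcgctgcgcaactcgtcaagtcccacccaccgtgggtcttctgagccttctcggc
Of the 34 members with a window, 29 (85.3%) held TTTGAA or TTTAAA somewhere in the 300 bases, on either strand, against 30.6% of the 27025 genes in the RefSeq table. TTTGAA was found in 26 members (76.5%, against 20.2% of all genes) and TTTAAA in 9 (26.5%, against 14.9%). CCAAT was present in 27 members (79.4%, against 41.1%), and both kinds of element stood in the same window in 24 members (70.6%, against 12.2%). These are letters found in a window, not measured binding. Between neurosphere lines, the SD of log2 CPM had a median of 1.58 over the 24 members with both elements and of 1.58 over the 10 members without both.

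As a module, the mitosis genes were lower in neurospheres than in MEFs, and they differed far more between neurosphere lines than between genotypes. Their summed level averaged 2216 ± 2208 CPM in KO neurospheres and 2005 ± 1026 CPM in WT neurospheres (SD, n = 3 each), a ratio of 1.11. It averaged 7135 ± 2042 CPM in KO MEFs (SD, n = 5) and 6700 ± 1872 CPM in WT MEFs (SD, n = 3), a ratio of 1.06. In both cell types the difference between genotypes was smaller than the SD between lines. Neurospheres had 0.311 times the summed level of MEFs among KO lines and 0.299 times among WT lines. In bulk RNA, fewer dividing cells and less of each mRNA per cell cannot be told apart.

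By line, the summed level was 1267, 640.2 and 4739 CPM in KO neurospheres 1 to 3, against 927, 2118 and 2969.9 CPM in WT neurospheres 1 to 3, and 5753, 8966, 9729.6, 5454 and 5774 CPM in KO MEFs 1 to 5, against 5426, 8849.8 and 5824 CPM in WT MEFs 1 to 3. KO neurospheres 3 stood above every other neurosphere line and KO neurospheres 2 below every other, 7.40-fold apart, with the 3 WT lines and KO neurospheres 1 between them. The highest and the lowest MEF line were 1.79-fold apart, and 3 MEF lines, KO MEFs 2, KO MEFs 3 and WT MEFs 2, stood above the other 5. As a share of all counts in genes, the members took 0.126%, 0.0638% and 0.503% in KO neurospheres 1 to 3, against 0.0950%, 0.224% and 0.291% in WT neurospheres 1 to 3.

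**Figure D1:**
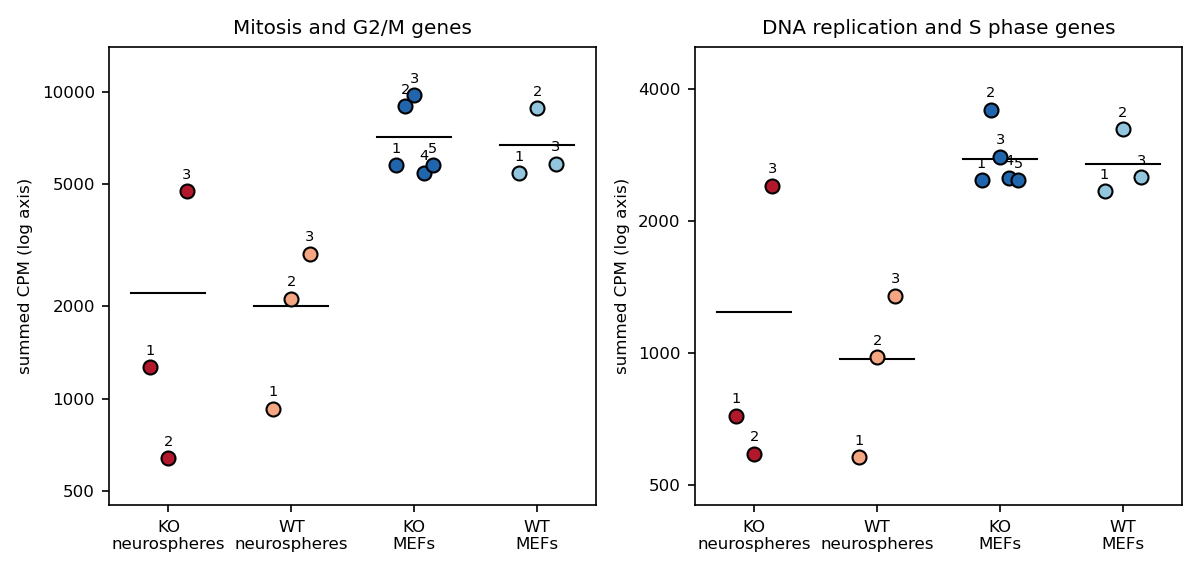
Summed CPM of the 42 mitosis and G2/M genes (left) and of 45 DNA replication and S phase genes (right) in each library, on a log axis. Points are lines with their number, bars are group means, and KO neurospheres 2 (640 CPM) and KO neurospheres 3 (4739 CPM) lie on either side of all WT neurospheres in the left panel.

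The order of the lines recurred from gene to gene. KO neurospheres 3 was above all WT neurospheres in 39 of the 42 members and KO neurospheres 2 below all of them in 36, both at once in 34. KO neurospheres 1 lay between the lowest and the highest WT line in 35. For 22 members the order from the highest line to the lowest was KO 3, WT 3, WT 2, KO 1, WT 1 and KO 2. In MEFs the 3 highest lines were KO MEFs 2, KO MEFs 3 and WT MEFs 2 in 40 members. All members of a library share its depth and its scaling, so these counts describe 14 libraries and are not 42 separate observations.

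**Figure D2:**
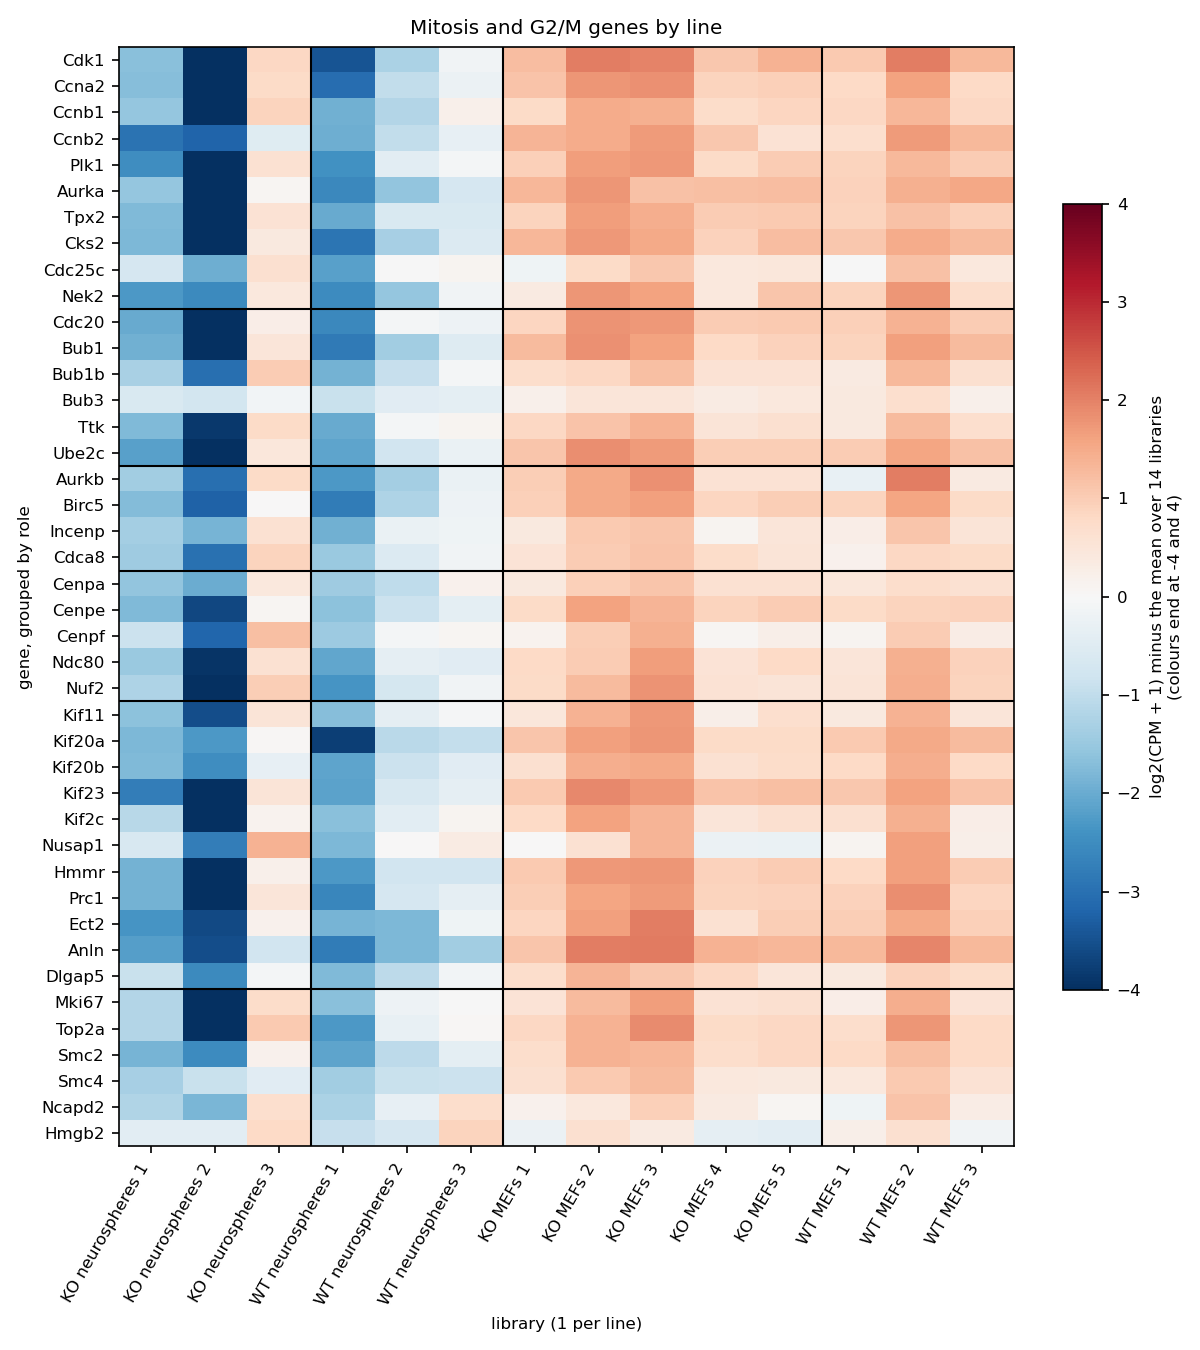
Level of each member in each library as log2(CPM + 1) minus the gene's mean over the 14 libraries, with colours that end at -4 and 4. Black lines divide the roles and the 4 groups. Nearly the whole column of KO neurospheres 2 is blue, the columns of KO MEFs 2, KO MEFs 3 and WT MEFs 2 are the reddest, and the rows of Bub3, Smc4 and Hmgb2 change least among neurospheres.

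The kinases and cyclins of mitotic entry include Cdk1, the kinase that starts mitosis. It had 25.2, 0 and 145 CPM in KO neurospheres 1 to 3, against 6.51, 33.2 and 74.6 CPM in WT neurospheres 1 to 3. In the fibroblasts Cdk1 had 193, 339.5, 324, 174 and 217 CPM in KO MEFs 1 to 5, against 168, 338 and 201 CPM in WT MEFs 1 to 3. The groups overlapped in both cell types, and Cdk1 was at 0 in KO neurospheres 2, where 3 counts would be 1.80 CPM. KO neurospheres 3 was 80.1-fold above that floor, which is a lower bound for its ratio to KO neurospheres 2. Cks2, a small subunit that binds CDK1, had 26.8, 3.61 and 125 CPM in KO neurospheres 1 to 3, against 11.9, 37.8 and 65.4 CPM in WT neurospheres 1 to 3, with 244, 324, 274, 184 and 226 CPM in KO MEFs 1 to 5, against 205, 272 and 229.6 CPM in WT MEFs 1 to 3. Ccna2, the cyclin A of S phase and G2, had 16.1, 1.20 and 92.4 CPM in KO neurospheres 1 to 3, against 5.74, 27.1 and 46.2 CPM in WT neurospheres 1 to 3, with 122, 188, 197, 102 and 106 CPM in KO MEFs 1 to 5, against 94.5, 169 and 95.8 CPM in WT MEFs 1 to 3. Like Cdk1, both were highest among neurospheres in KO 3 and lowest in KO 2.

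Ccnb1 and Ccnb2 encode the B-type cyclins. Ccnb1 ranged from 1.20 CPM in KO neurospheres 2 to 104 CPM in KO neurospheres 3. For Ccnb2 the values were 1.65, 1.20 and 13.6 CPM in KO neurospheres 1 to 3, against 4.21, 9.34 and 15.3 CPM in WT neurospheres 1 to 3, with 51.1, 56.5, 65.6, 42.3 and 29.4 CPM in KO MEFs 1 to 5, against 31.7, 65.1 and 48.8 CPM in WT MEFs 1 to 3. Here WT neurospheres 3 and not KO neurospheres 3 was the highest, and KO neurospheres 1 was near KO neurospheres 2. A processed pseudogene of Ccnb1 had 0 counts in every library and one of Ccnb2 at most 5.34 counts. Plk1, a kinase needed from entry through cytokinesis, had 13.2, 2.40 and 120.0 CPM in KO neurospheres 1 to 3, against 13.8, 58.8 and 74.6 CPM in WT neurospheres 1 to 3, with 154, 252, 262, 135 and 158 CPM in KO MEFs 1 to 5, against 147, 195 and 158 CPM in WT MEFs 1 to 3.

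Aurka, the centrosomal Aurora kinase, had 5.78, 0 and 19.6 CPM in KO neurospheres 1 to 3, against 2.30, 5.60 and 11.4 CPM in WT neurospheres 1 to 3, with 48.0, 65.4, 42.7, 43.7 and 44.9 CPM in KO MEFs 1 to 5, against 36.5, 51.4 and 56.7 CPM in WT MEFs 1 to 3. KO MEFs 2 was the highest MEF line for this gene, while KO MEFs 3, high for most members, was among the lower ones. Tpx2, which activates Aurora A on the spindle, had 24.4, 2.40 and 129.8 CPM in KO neurospheres 1 to 3, against 20.7, 55.6 and 55.4 CPM in WT neurospheres 1 to 3, with 162, 276, 239, 175 and 177 CPM in KO MEFs 1 to 5, against 161, 197 and 166 CPM in WT MEFs 1 to 3. The phosphatase gene Cdc25c, an activator of CDK1, was low throughout, at 0.601 to 8.75 CPM in KO neurospheres, 0.383 to 5.69 CPM in WT neurospheres, 4.49 to 12.1 CPM in KO MEFs and 5.16 to 12.9 CPM in WT MEFs. Nek2, a centrosomal kinase, reached 30.1 CPM among KO neurospheres and 20.3 CPM among WT neurospheres.

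Among the checkpoint genes, Bub3 was the member that differed least between lines. It binds the kinetochore protein KNL1 and brings BUB1 and BUBR1 there, and it had 85.9, 78.7 and 123 CPM in KO neurospheres 1 to 3, against 71.2, 95.7 and 102 CPM in WT neurospheres 1 to 3, with 154, 188, 184, 168 and 178 CPM in KO MEFs 1 to 5, against 176, 211 and 152 CPM in WT MEFs 1 to 3. KO neurospheres 2, low for nearly all members, was inside the WT range for Bub3. Its partner Bub1, a checkpoint kinase, had 5.78, 0.601 and 35.0 CPM in KO neurospheres 1 to 3, against 2.68, 8.87 and 17.1 CPM in WT neurospheres 1 to 3, with 61.5, 91.8, 77.7, 43.7 and 48.3 CPM in KO MEFs 1 to 5, against 47.2, 79.8 and 61.3 CPM in WT MEFs 1 to 3. Bub1b, which encodes BUBR1, had 6.19, 1.20 and 34.6 CPM in KO neurospheres 1 to 3, against 3.83, 8.41 and 15.6 CPM in WT neurospheres 1 to 3, with 28.0, 30.5, 39.8, 25.3 and 25.3 CPM in KO MEFs 1 to 5, against 21.8, 42.4 and 26.8 CPM in WT MEFs 1 to 3. Both partners fell to 1 or 2 counts in KO neurospheres 2, where Bub3 still had 131 counts.

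Cdc20 activates the anaphase promoting complex, and Ube2c is the ubiquitin-conjugating enzyme that works with it. Cdc20 had 8.26, 0 and 44.1 CPM in KO neurospheres 1 to 3, against 5.36, 34.6 and 31.6 CPM in WT neurospheres 1 to 3, with 68.0, 129, 123, 75.3 and 77.3 CPM in KO MEFs 1 to 5, against 72.6, 98.5 and 75.6 CPM in WT MEFs 1 to 3. Ube2c had 9.50, 0 and 63.7 CPM in KO neurospheres 1 to 3, against 9.96, 26.6 and 38.4 CPM in WT neurospheres 1 to 3, with 102, 169.9, 154, 93.0 and 92.4 CPM in KO MEFs 1 to 5, against 94.8, 141 and 105 CPM in WT MEFs 1 to 3. Both were at 0 in KO neurospheres 2, and in KO neurospheres 3 both were above every WT neurosphere line. Ttk, the kinase MPS1 that starts checkpoint signalling, ran from 1.20 to 53.2 CPM in KO neurospheres and from 6.89 to 33.1 CPM in WT neurospheres.

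The chromosomal passenger complex consists of the kinase Aurora B (Aurkb) with survivin (Birc5), borealin (Cdca8) and INCENP (Incenp), and it corrects wrong attachments of chromosomes to the spindle. Aurkb had 5.78, 1.20 and 29.7 CPM in KO neurospheres 1 to 3, against 2.68, 6.07 and 13.9 CPM in WT neurospheres 1 to 3, with 34.2, 50.7, 63.2, 25.7 and 26.0 CPM in KO MEFs 1 to 5, against 13.5, 72.6 and 22.0 CPM in WT MEFs 1 to 3. It spread most of all members over the MEF lines, with an SD of 0.81 log2 units, since WT MEFs 2 and KO MEFs 3 were high and WT MEFs 1 was low. Birc5 had 27.7, 9.02 and 95.2 CPM in KO neurospheres 1 to 3, against 12.6, 39.7 and 82.1 CPM in WT neurospheres 1 to 3, with 183, 269, 292, 172 and 188 CPM in KO MEFs 1 to 5, against 175, 279 and 159 CPM in WT MEFs 1 to 3. Cdca8 had 16.1, 4.81 and 84.0 CPM in KO neurospheres 1 to 3, against 15.3, 30.8 and 40.5 CPM in WT neurospheres 1 to 3, with 66.3, 92.9, 100.1, 75.6 and 64.9 CPM in KO MEFs 1 to 5, against 50.4, 80.9 and 78.1 CPM in WT MEFs 1 to 3. In neurospheres the 3 genes shared the order of the module's sum, with KO 3 at the top and KO 2 at the bottom. Incenp reached 44.8 CPM in KO neurospheres 3 and was lowest, at 6.89 CPM, in WT neurospheres 1.

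At the centromere and kinetochore, Cenpa encodes the H3 variant that marks centromeres and Cenpe a kinesin that carries chromosomes to the plate. Cenpa had 19.8, 14.4 and 81.5 CPM in KO neurospheres 1 to 3, against 21.8, 29.4 and 67.9 CPM in WT neurospheres 1 to 3, with 79.1, 119.6, 133, 93.7 and 92.4 CPM in KO MEFs 1 to 5, against 82.9, 98.9 and 92.7 CPM in WT MEFs 1 to 3. Cenpe had 44.2, 11.4 and 162 CPM in KO neurospheres 1 to 3, against 48.2, 84.5 and 116 CPM in WT neurospheres 1 to 3, with 262, 471, 397, 287 and 313 CPM in KO MEFs 1 to 5, against 259.9, 284 and 295 CPM in WT MEFs 1 to 3. For Cenpe the highest neurosphere line was below the lowest MEF line, and for Cenpa it was not. Cenpf, a large kinetochore protein, had 85.9, 16.8 and 367 CPM in KO neurospheres 1 to 3, against 56.7, 149.9 and 168 CPM in WT neurospheres 1 to 3, with 173, 313, 428, 168 and 186 CPM in KO MEFs 1 to 5, against 171, 320.1 and 193 CPM in WT MEFs 1 to 3, so KO neurospheres 3 was inside the MEF range. NDC80 and NUF2 pair in the complex that grips microtubules. Nuf2 had 12.0, 0.601 and 59.8 CPM in KO neurospheres 1 to 3, against 4.98, 17.7 and 26.7 CPM in WT neurospheres 1 to 3, with 51.4, 72.3, 105, 45.1 and 42.6 CPM in KO MEFs 1 to 5, against 42.5, 82.4 and 56.4 CPM in WT MEFs 1 to 3. Its partner Ndc80 ran from 1.20 to 49.0 CPM in KO neurospheres and from 6.89 to 24.8 CPM in WT neurospheres.

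Spindle motors, microtubule binding proteins and genes of cytokinesis made up the largest role class, with 11 members. Anln encodes anillin, a scaffold of the contractile ring, and had 16.9, 6.01 and 46.9 CPM in KO neurospheres 1 to 3, against 10.7, 22.4 and 30.6 CPM in WT neurospheres 1 to 3, with 175, 340.2, 346, 214 and 204 CPM in KO MEFs 1 to 5, against 201, 319 and 198 CPM in WT MEFs 1 to 3. Prc1 bundles the midzone microtubules, and had 27.3, 3.01 and 145 CPM in KO neurospheres 1 to 3, against 16.1, 65.4 and 81.0 CPM in WT neurospheres 1 to 3, with 207, 309, 336, 195 and 197 CPM in KO MEFs 1 to 5, against 198, 383 and 190.0 CPM in WT MEFs 1 to 3. Both had every neurosphere line below every MEF line. Kif20a, a kinesin of the midzone, had 9.09, 6.01 and 34.6 CPM in KO neurospheres 1 to 3, against 1.53, 15.4 and 17.1 CPM in WT neurospheres 1 to 3, with 73.5, 108, 118, 57.9 and 58.5 CPM in KO MEFs 1 to 5, against 70.6, 98.5 and 81.7 CPM in WT MEFs 1 to 3. In that case the lowest neurosphere line was WT 1 and not KO 2. Ect2, which switches on RhoA for cytokinesis, had 7.02, 2.40 and 45.8 CPM in KO neurospheres 1 to 3, against 10.3, 10.7 and 35.5 CPM in WT neurospheres 1 to 3, with 74.6, 127, 168, 62.5 and 80.4 CPM in KO MEFs 1 to 5, against 81.0, 118 and 79.0 CPM in WT MEFs 1 to 3. Hmmr, a spindle protein that also binds hyaluronan, had 18.6, 2.40 and 82.9 CPM in KO neurospheres 1 to 3, against 13.8, 42.03 and 41.9 CPM in WT neurospheres 1 to 3, with 150.2, 241, 245, 139 and 148 CPM in KO MEFs 1 to 5, against 127, 226 and 148 CPM in WT MEFs 1 to 3. Dlgap5, a protein of the spindle's kinetochore fibres, had 7.85, 1.80 and 14.7 CPM in KO neurospheres 1 to 3, against 3.83, 7.01 and 14.2 CPM in WT neurospheres 1 to 3, with 25.9, 41.1, 34.0, 28.1 and 22.3 CPM in KO MEFs 1 to 5, against 20.6, 30.2 and 26.5 CPM in WT MEFs 1 to 3. These 3 had KO neurospheres 3 highest and KO neurospheres 2 lowest. Nusap1, which binds spindle microtubules near chromatin, had 27.3, 5.41 and 114 CPM in KO neurospheres 1 to 3, against 11.5, 43.4 and 53.7 CPM in WT neurospheres 1 to 3, with 43.2, 66.1, 112, 36.1 and 35.8 CPM in KO MEFs 1 to 5, against 46.4, 135 and 50.9 CPM in WT MEFs 1 to 3. For Nusap1 the MEF lines split, with KO MEFs 3 and WT MEFs 2 well above the others, which lay at 35.8 to 66.1 CPM. Kif23 and Kif2c were at 0 in KO neurospheres 2, and Kif11 and Kif20b reached 64.7 and 54.9 CPM in KO neurospheres 3.

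Among genes of chromosome structure, Top2a, the topoisomerase that untangles sister chromatids, had 141, 3.01 and 660.3 CPM in KO neurospheres 1 to 3, against 63.9, 255 and 327 CPM in WT neurospheres 1 to 3, with 560.0, 833, 1166, 542 and 563 CPM in KO MEFs 1 to 5, against 512, 1067 and 552 CPM in WT MEFs 1 to 3. KO neurospheres 3 was 220-fold above KO neurospheres 2 and inside the MEF range. That ratio rests on 5 counts in KO neurospheres 2, so its size is imprecise. Smc4, a subunit of condensin, behaved otherwise, with 189.6, 257 and 351 CPM in KO neurospheres 1 to 3, against 181, 259 and 261 CPM in WT neurospheres 1 to 3, and 754, 987, 1138, 635 and 629 CPM in KO MEFs 1 to 5, against 646, 996 and 708 CPM in WT MEFs 1 to 3. KO neurospheres 2, lowest for most members, was level with WT neurospheres 2 and 3 for Smc4. Smc2, its partner, ranged from 48.1 CPM in KO neurospheres 2 to 316 CPM in KO neurospheres 3. Hmgb2, a chromatin protein also used outside mitosis, had 108, 108 and 252 CPM in KO neurospheres 1 to 3, against 75.8, 90.1 and 266 CPM in WT neurospheres 1 to 3, with 124, 227, 185, 112 and 108 CPM in KO MEFs 1 to 5, against 168, 225 and 131 CPM in WT MEFs 1 to 3. Mki67, the gene of the proliferation antigen Ki-67, had 76.0, 6.01 and 284 CPM in KO neurospheres 1 to 3, against 53.6, 150.4 and 169.5 CPM in WT neurospheres 1 to 3, with 252, 411, 546, 257 and 265 CPM in KO MEFs 1 to 5, against 206, 469 and 249.8 CPM in WT MEFs 1 to 3. The condensin gene Ncapd2 ran from 12.6 to 77.0 CPM in KO neurospheres and from 19.1 to 78.9 CPM in WT neurospheres. Of its reads, 77.4% in neurospheres and 86.8% in MEFs were assigned to a transcript of 3 exons and 894 bases. Its transcript of 32 exons took 6.9% and 7.3%. How far the gene's CPM stand for the condensin mRNA was not tested.

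The spread between neurosphere lines was wide for most members, given here as a description. The SD of log2 CPM over the 6 neurosphere lines had a median of 1.50 over the 42 members, against 0.40 over all 10628 genes tested. Over the 8 MEF lines the median was 0.40 for the members and 0.36 for all 10789 genes tested. Cdk1 (2.71) and Top2a (2.65) had the highest SD in neurospheres, and Bub3 (0.28), Smc4 (0.35) and Hmgb2 (0.77) the lowest. In KO neurospheres 2, 16 of the 42 members had at most 3 counts and 6 were at 0, so the size of their drop is limited by depth.

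**Figure D3:**
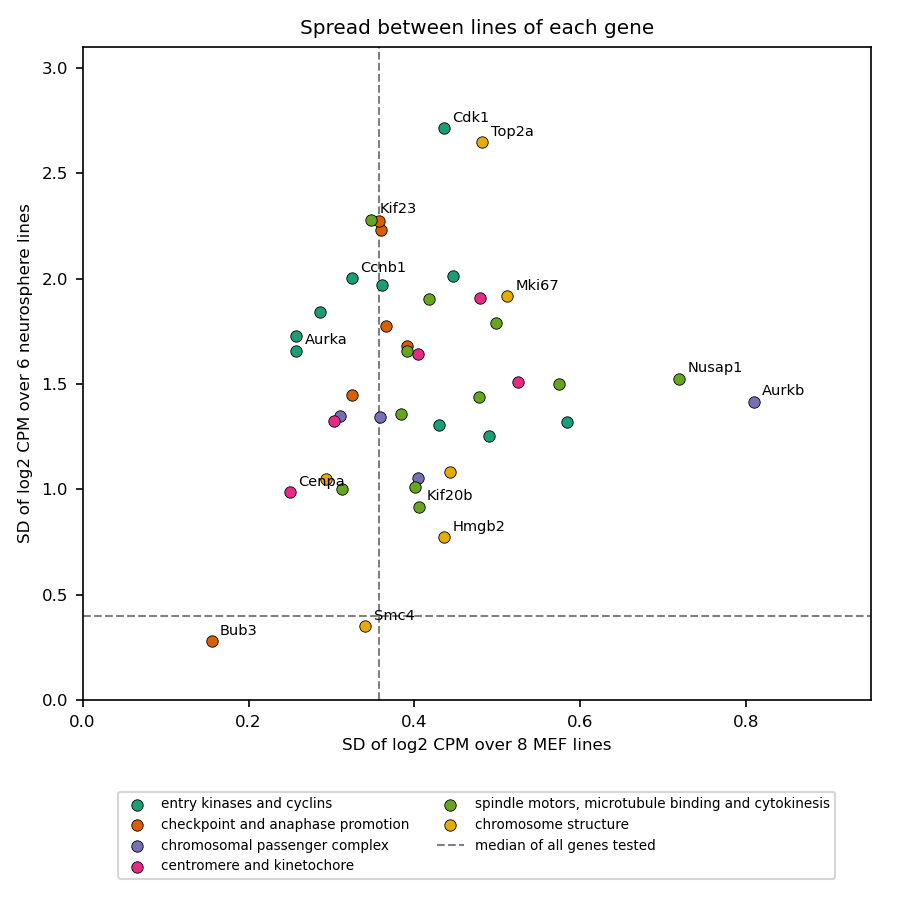
SD of log2 CPM of each member over the 8 MEF lines (x axis) and over the 6 neurosphere lines (y axis), coloured by role. Dashed lines are the medians over all genes tested, 0.36 and 0.40, and 40 of the 42 members lie above the dashed line for neurospheres, with Bub3 and Smc4 under it.

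Other features of the libraries differed along with the module. Genes of the mitochondrial genome took 13.8% to 16.1% of counts in KO neurospheres and 12.9% to 16.8% in WT neurospheres. In KO MEFs they took 5.27% to 5.77% and in WT MEFs 5.63% to 6.15%. The level of a gene list in a line was taken as the mean over its genes of log2 CPM after subtraction of each gene's mean over the lines of that cell type. For the mitosis genes this level was -0.29, -2.32 and 1.77 in KO neurospheres 1 to 3, against -0.82, 0.54 and 1.11 in WT neurospheres 1 to 3. It was -0.23, 0.41, 0.51, -0.31 and -0.24 in KO MEFs 1 to 5, against -0.36, 0.41 and -0.19 in WT MEFs 1 to 3. The level of 10 neuron markers was 0.53, 0.55 and -0.86 in KO neurospheres 1 to 3, against 0.22, -0.51 and 0.06 in WT neurospheres 1 to 3. Their summed level was 1373 to 1778 CPM in KO neurospheres and 1437 to 1589 CPM in WT neurospheres, with 1 marker, Stmn2, at 0 in all KO lines. For 10 astrocyte and oligodendrocyte markers the level was 0.97, 0.27 and -0.48 in KO neurospheres 1 to 3, against 0.59, -0.11 and -1.24 in WT neurospheres 1 to 3. Their sum was 431 to 637 CPM in KO neurospheres and 337 to 388 CPM in WT neurospheres. For the sum every KO line was thus above every WT line, as for 3.34% of all single genes tested. Their level overlapped between the genotypes, and 0 of the 6 markers tested were called in KO against WT neurospheres by edgeR. Mog was at 0 in all 6 lines, and S100b was the largest single part of the sum in each line. The level of 16 quiescence genes was -0.04, 0.42 and -0.37 in KO neurospheres 1 to 3, against 0.14, 0.01 and -0.16 in WT neurospheres 1 to 3. Among neurospheres it was highest in the line where the mitosis genes were lowest and lowest where they were highest. In MEFs it was -0.08, -0.26, 0.58, -0.33 and -0.24 in KO MEFs 1 to 5, against -0.23, 0.73 and -0.17 in WT MEFs 1 to 3. There it was highest in WT MEFs 2 and KO MEFs 3, where the mitosis genes were also high. Fibroblast markers stood at 1.46 in WT neurospheres 1 and between -0.62 and -0.10 in the other 5, with 4 of the 15 (Col3a1, Col6a1, Pdgfrb and Postn) at 0 in all KO neurospheres. In MEFs the level of 13 macrophage and blood markers was 0.28, 0.59, -0.96, -1.22 and -0.59 in KO MEFs 1 to 5, against 0.13, 1.53 and 0.24 in WT MEFs 1 to 3. Their sum was 21.9 to 112 CPM in KO MEFs and 81.1 to 208 CPM in WT MEFs, with the haemoglobin genes Hba-a1 and Hbb-bs at 0 in all of them. The part of these lists, of depth and of the mitochondrial share in the mitosis levels was not tested.

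Loss of H3f3a in neurospheres gave no call among the mitosis genes. With edgeR's quasi-likelihood test over 10628 genes, 0 members were called higher and 0 lower at a Benjamini-Hochberg adjusted p under 0.05, and 0 had an unadjusted p under 0.05. DESeq2 and limma on TPM also called 0. The background was 0% of all genes called higher and 0.00941% called lower, which was H3f3a alone. KO and WT lines overlapped for all 42 members, whereas 3.34% of all genes had every KO line above every WT line and 3.87% every KO line below. Fold changes were positive for 32 members and negative for 10, with a median log2 of 0.16, against 0.01 over all genes.

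The neurosphere estimates were wide. The median 95% interval ran from -2.21 to 2.62 on the log2 scale, and 2 of the 42 intervals, those of Bub3 (-0.50 to 0.73) and Smc4 (-0.46 to 0.88), lay within a 2-fold change either way. The largest estimates were 0.75 for Aurkb (interval -1.68 to 3.18) and -0.71 for Ccnb2 (-2.80 to 1.37). Cdk1 stood at 0.61, Top2a at 0.34, Bub1b at 0.65, Kif20a at 0.59, Nuf2 at 0.60 and Bub1 at 0.59, all with edgeR adjusted p of at least 0.999. The sign of the median turned with the choice of lines and unit. It was -1.48 without KO neurospheres 3, 0.59 without KO neurospheres 2, -0.20 without WT neurospheres 1, and -0.40 on deposited TPM with a pseudocount of 1.

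**Figure D4:**
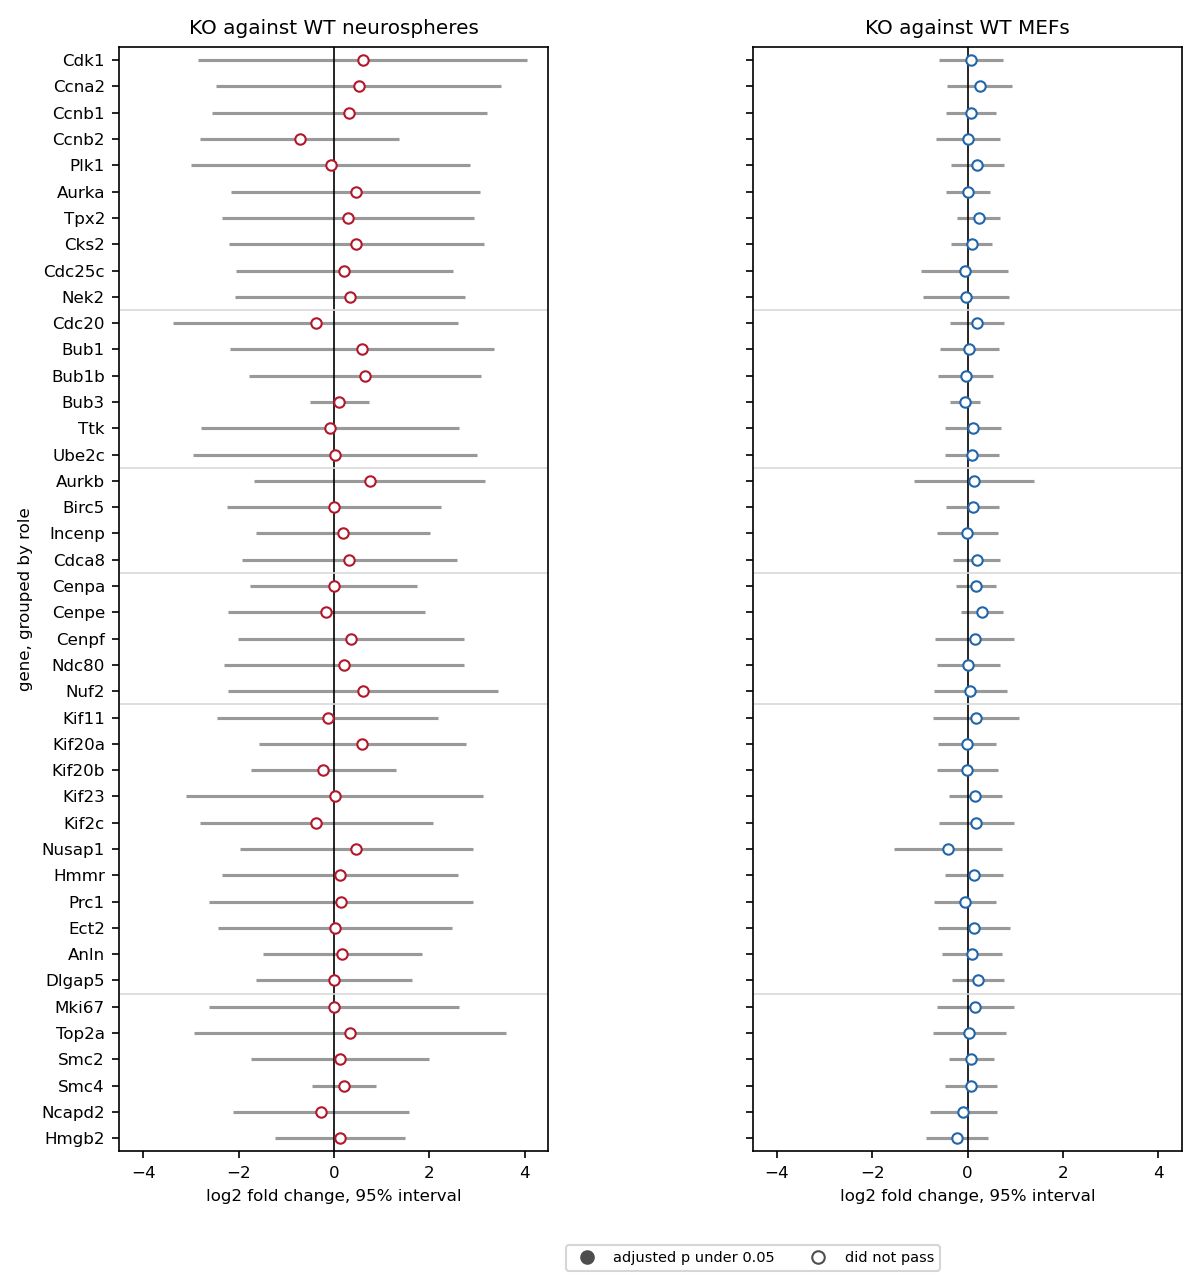
Log2 fold change of each member in KO against WT neurospheres (left) and KO against WT MEFs (right), with 95% intervals from edgeR. All points are open, since no member passed, and the intervals in neurospheres (median -2.21 to 2.62) are wider than those in MEFs (median -0.59 to 0.70).

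In MEFs the estimates were close to 0 and far narrower. Of 10789 genes tested, 0 members were called in either direction by edgeR, DESeq2 or limma, and 0 had an unadjusted p under 0.05. The background was 0% of genes called higher and 0.00927% lower, which was H3f3a alone. KO and WT lines overlapped for all 42 members, against 0.918% of all genes with every KO line higher and 0.936% with every KO line lower. The median log2 fold change was 0.08 (all genes -0.00), with 31 members positive and 11 negative, and 39 of the 42 intervals lay within a 2-fold change. The estimates ran from -0.41 for Nusap1 (interval -1.53 to 0.71) to 0.30 for Cenpe (-0.14 to 0.75).

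Next to Cenpe, the smallest unadjusted p values in MEFs were those of Tpx2 (log2 0.23), Dlgap5 (log2 0.23), Cenpa (log2 0.17), Cdca8 (log2 0.19) and Ccna2 (log2 0.25), at unadjusted p = 0.269 to 0.424 in that order and all with an edgeR adjusted p of 1.00. By role the medians were 0.08 for entry kinases and cyclins, 0.07 for checkpoint genes, 0.12 for the passenger complex, 0.15 for the centromere and kinetochore, 0.14 for spindle and cytokinesis and 0.06 for chromosome structure. The sign of the MEF median depended on single lines too, from -0.06 without KO MEFs 3 to 0.34 without WT MEFs 2.

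Whether the effect of the KO differed between neurospheres and MEFs was tested as an interaction over all 14 libraries. Of 12117 genes, 0 were called by edgeR, 366 had an unadjusted p under 0.05 and DESeq2 called 3. Among the 42 members 0 were called by either tool and 0 had an unadjusted p under 0.05. The median difference was 0.11 on the log2 scale, with a median interval from -1.99 to 2.20, so sizeable differences in either direction were not detectable here.

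Cell type made the larger difference. In WT neurospheres against WT MEFs, 29 of the 42 members were called lower and 0 higher by edgeR, beside 20.8% of all 11084 genes called lower and 20.8% called higher. All 42 estimates were negative, with a median log2 of -1.79, against 0.02 over all genes. Every WT neurosphere line was below every WT MEF line for 37 members, as for 28.9% of all genes, and 0 members had every WT neurosphere line above, against 28.2%. Among KO lines 18 members were called lower and 0 higher, beside 26.1% and 25.4% of all 11417 genes. There 41 estimates were negative, the median was -1.91 (all genes -0.02), and for 24 members every KO neurosphere line was below every KO MEF line, against 25.6% of all genes. No member had every KO neurosphere line above, against 24.2% of all genes.

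Anln fell the most in both, by 3.39 on the log2 scale in KO neurospheres against KO MEFs (SE 0.59, edgeR adjusted p = 0.0012) and by 3.47 in WT neurospheres against WT MEFs (SE 0.42, adjusted p = 0.0008). In KO lines Ccnb2 followed at -3.02 (adjusted p = 0.0044), then Aurka at -2.42 (adjusted p = 0.019), Ect2 at -2.39 (adjusted p = 0.026) and Hmmr at -2.35 (adjusted p = 0.029), all by edgeR. In WT lines the next were Aurka at -2.87 (adjusted p = 0.0041), Kif20a at -2.86 (adjusted p = 0.013), Bub1 at -2.68 (adjusted p = 0.0085) and Cdk1 at -2.60 (adjusted p = 0.028), also by edgeR. Cytokinesis genes (Anln, Ect2, Kif20a) and kinases of entry and the checkpoint (Aurka, Bub1) were thus among those that fell most.

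Of the 42 members, 17 were called lower in both comparisons, 12 in WT lines alone, Cenpa in KO lines alone and 12 in neither. The 12 called in neither were Aurkb, Cdc25c, Cenpf, Hmgb2, Incenp, Kif11, Kif2c, Mki67, Ncapd2, Nusap1, Top2a and Ttk. A call in one genotype and not the other does not show a difference between them. In the interaction 0 members passed, but its wide intervals could not exclude such a difference. Bub3, the steadiest gene, was lower by 0.84 log2 units in KO and 0.98 in WT neurospheres, and Smc4 by 1.62 and 1.72, and both were called in both. Hmgb2 did not pass, at 0.07 among KO lines and -0.25 among WT lines. For 24 members the highest neurosphere line was below the lowest MEF line over all 14 libraries.

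The count of calls among KO lines rested on KO neurospheres 3 and KO neurospheres 1. Without KO neurospheres 3, 40 members were called lower and the median log2 was -3.39, and without KO neurospheres 1, 7 were called lower. Among WT lines 18 were called lower without WT neurospheres 2 and 19 without WT MEFs 3. The cell types also differ in tissue and kind of culture, which cannot be told apart here. The labels do not say whether a neurosphere line and a MEF line came from the same embryo or litter, so these comparisons and the interaction treat all lines as independent. Deviations from the group mean of same-numbered MEF and neurosphere lines correlated at -0.055 to 0.031 among WT lines. Among KO lines they correlated at -0.082 to -0.015. The numbers used were those of the sample titles. Other numbers in the deposited names might tie lines to shared embryos, but the labels do not explain them and they were not used. Whether lines share an embryo or litter was not tested.

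**Figure D5:**
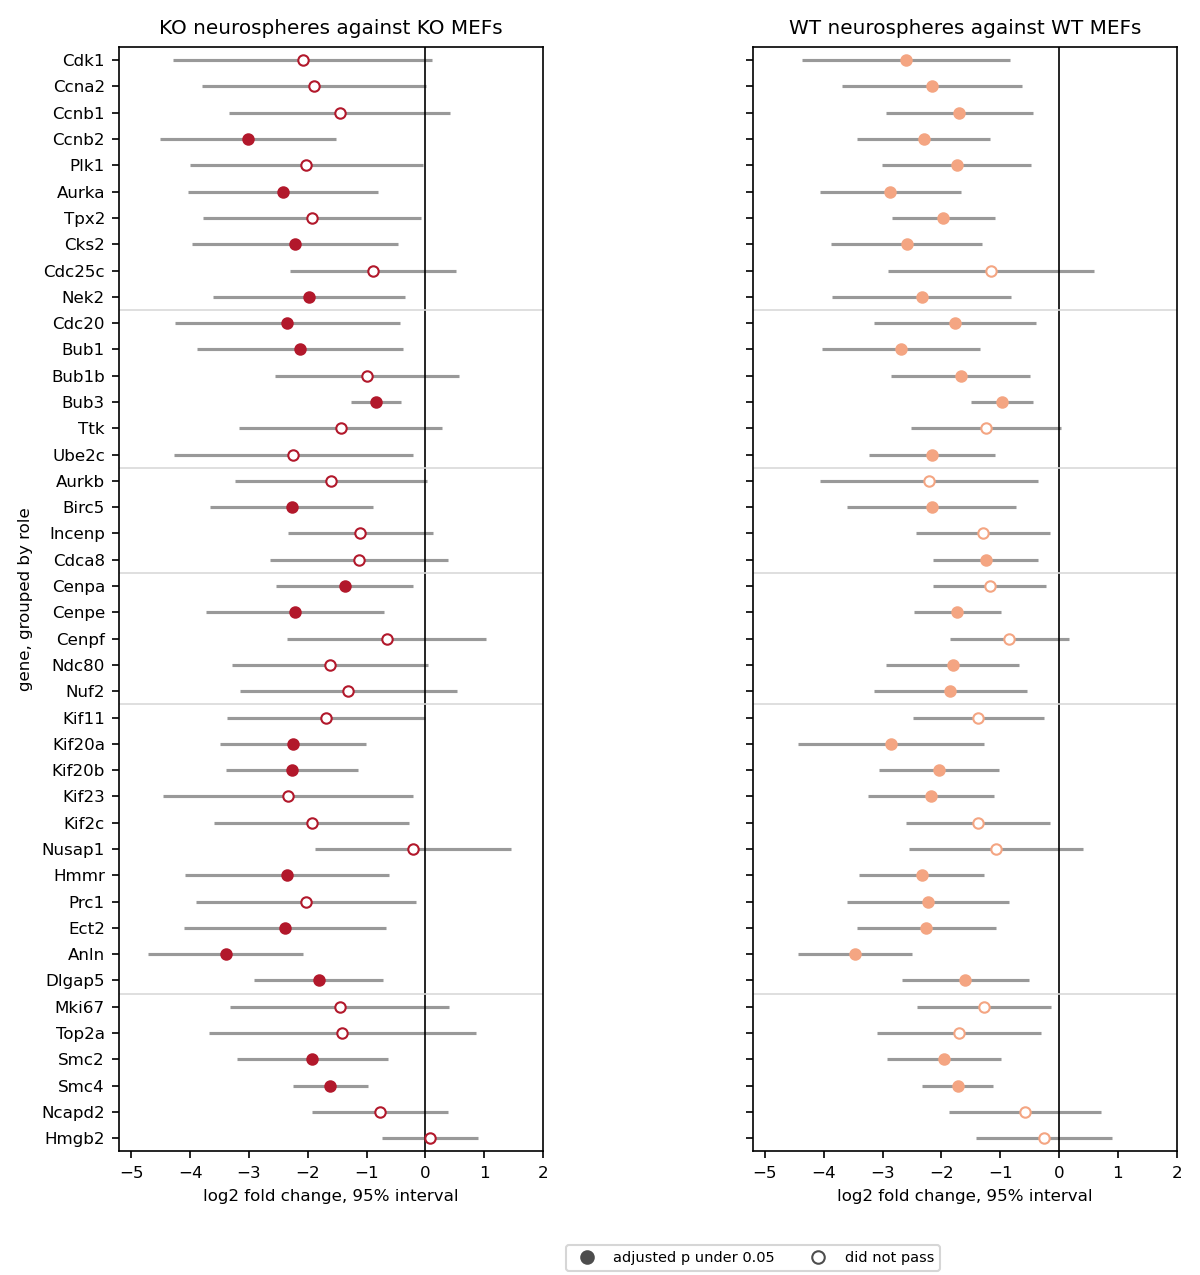
Log2 fold change of each member in KO neurospheres against KO MEFs (left) and WT neurospheres against WT MEFs (right), with 95% intervals from edgeR. Filled points passed at an adjusted p under 0.05 (18 on the left, 29 on the right), and Anln lies farthest to the left in both panels.

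Regulators of the module were read from a list of 23 genes. In WT neurospheres against WT MEFs 2 of 21 tested were called higher and 8 lower, and in KO neurospheres against KO MEFs 3 of 22 were higher and 5 lower. Over all genes 20.8% were called in each direction among WT lines, and 25.4% higher and 26.1% lower among KO lines, and the regulators called lower among KO lines were near that share. Rbl2, which encodes p130 of the DREAM complex, rose by 1.86 log2 units in KO and by 1.23 in WT neurospheres, and Rb1, the retinoblastoma gene, by 2.58 and 2.13. Tfdp1, the dimer partner of E2F proteins, fell in both, by 1.17 and 1.74. Foxm1, the activator of G2/M genes, was called lower in WT neurospheres at -2.02, and by line it had 2.06, 0 and 27.6 CPM in KO neurospheres 1 to 3, against 3.83, 8.41 and 16.7 CPM in WT neurospheres 1 to 3. As for the module's sum, KO 3 was highest and KO 2, here at 0, was lowest. Rbl2 had 76.8, 128 and 38.8 CPM in KO neurospheres 1 to 3, against 52.8, 42.03 and 42.3 CPM in WT neurospheres 1 to 3, and KO neurospheres 2 was the highest line for it. Foxm1 and Rbl2 were picked for values by line after those values were seen. The summed level of the 23 genes was 869, 992 and 955 CPM in KO neurospheres 1 to 3, with KO 2 highest. In WT neurospheres 1 to 3 it was 833, 787 and 844 CPM. By mean level KO 2 was instead the lowest line, at -0.37, and KO 3 the highest, at 0.55. None of the 23 passed in a KO comparison: the smallest p belonged to E2f6 in neurospheres (log2 0.90, edgeR adjusted p = 0.999) and to Nfya in MEFs (-0.79, adjusted p = 1.00).

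Mitotic genes outside the 42 were read from further lists, whose counts stand beside 26.1% of all genes called lower and 25.4% higher among KO lines and 20.8% in each direction among WT lines. The calls lower among KO lines were below or near that share for the kinetochore, motor, anaphase promoting complex and cohesin lists. Of 36 further kinetochore and checkpoint genes, 7 of 36 tested were called lower and 1 higher in KO neurospheres against KO MEFs, and 9 of 35 lower and 1 higher in WT neurospheres against WT MEFs. Spdl1, a dynein adaptor at kinetochores, fell most in both (-3.25 and -3.38), while Spc24, a subunit of the NDC80 complex, was higher in both (0.73 and 1.09). Of 26 further motor, spindle and cytokinesis genes, 6 of 24 were lower among KO lines and 8 of 22 among WT lines, with 1 higher in each, Numa1. Cep55, the abscission scaffold, fell by 2.12 and 3.00 on the log2 scale. Of 27 further G2/M kinases, phosphatases and cyclins, 9 were lower and 3 higher among KO lines and 10 lower and 1 higher among WT lines. Subunits and regulators of the anaphase promoting complex went both ways, with 6 lower and 3 higher of 20 among KO lines and 4 lower and 1 higher among WT lines. The 20 further condensin and cohesin genes did too, with 3 lower and 3 higher among KO lines and 5 lower and 3 higher among WT lines. The cohesin subunit Stag2 and the loaders Nipbl and Mau2 were higher in both, and the condensin subunit Ncapg was lower in both.

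DNA replication and S phase genes had the same neurosphere lines at both ends of their mean level. Of 45, 14 were called lower and 0 higher in KO neurospheres against KO MEFs, and 22 lower and 0 higher in WT neurospheres against WT MEFs. The share lower among KO lines was near the 26.1% of all genes, and that among WT lines stood beside 20.8%. Tyms, thymidylate synthase, fell in both (-1.82 and -1.99). The level of the list was -0.44, -0.96 and 1.43 in KO neurospheres 1 to 3, against -0.87, 0.13 and 0.70 in WT neurospheres 1 to 3, so KO neurospheres 3 was again the highest and KO neurospheres 2 the lowest. By summed CPM, KO neurospheres 2 (589 CPM) and WT neurospheres 1 (579 CPM) were level at the low end. The level of the list was -0.13, 0.38, 0.04, -0.09 and -0.16 in KO MEFs 1 to 5, against -0.23, 0.29 and -0.10 in WT MEFs 1 to 3, where KO MEFs 3 stood out less than it did for mitosis. Its summed CPM (2807 CPM) was below KO MEFs 2 (3590 CPM) and WT MEFs 2 (3249 CPM) but above all other MEF lines (2339 to 2519 CPM). In KO against WT neurospheres 0 of 43 tested were called, and 36 were positive, against 51.3% of all genes. The median log2 was 0.45. In KO against WT MEFs 0 of 45 were called, and 22 were positive, against 49.8% of all genes, with a median of -0.0016. All genes of a library share its depth and its scaling, so these counts are not separate observations.

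Genes of arrest showed no call with the KO. Of 25 CDK inhibitors and p53 targets, 0 passed in KO against WT neurospheres or MEFs, with a median log2 of 0.14 over 21 tested in neurospheres and -0.15 over 24 in MEFs. Between cell types 11 were called lower and 4 higher of 24 tested in KO neurospheres against KO MEFs (median log2 -0.63), and 10 lower and 3 higher of 24 in WT neurospheres against WT MEFs (median -0.90), beside the shares of all genes given above. The CDK inhibitor genes Cdkn2b (p15) and Cdkn1c (p57) were lower in both, at -2.65 and -5.92 among KO lines and -3.92 and -3.86 among WT lines. Cdkn1b, which encodes the CDK inhibitor p27, was higher in neurospheres, by 1.44 log2 units among KO lines and by 1.54 among WT lines. Of 16 quiescence genes 0 passed in either KO comparison, and 8 were higher and 4 lower in KO neurospheres against KO MEFs, beside 5 higher and 2 lower in WT neurospheres against WT MEFs. All genes gave 25.4% higher and 26.1% lower among KO lines and 20.8% in each direction among WT lines, so the quiescence genes called lower were near or below the share of all genes. Pdcd4, an inhibitor of translation, and Foxo3, a transcription factor of the FOXO family, were among those higher in both.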

How the data were processed

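QuantSeq 3′ forward libraries of 14 lines were read, 1 per line, grouped by the labels' genotype and cell type. Expected counts per transcript were deposited as NumReads, made by the authors with Salmon 1.1.0 per the submitters' processing notes. TPM values were deposited from the same Salmon output. The labels name neither genome build nor annotation. Identifiers were matched to GENCODE M21 on GRCm38: of 116945 transcripts, 115638 matched with version and length and 385 by identifier alone, and 922, with 0.239% to 0.400% of the reads, were left out. Expected counts were summed per gene (35519 genes) and rounded.

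Each comparison was fitted apart in edgeR 4.0.16 (R 4.3.3) with TMM factors, the default low-count filter and the robust quasi-likelihood test. A gene was called at a Benjamini-Hochberg adjusted p under 0.05 over all genes tested. All 42 members passed the filter in each comparison. Printed CPM use 1 set of TMM factors over all 14 libraries, while fold changes use those of their own fit. The floor for a count of 0 was 3 counts, which covers counting error only, as PCR copies cannot be told apart. Log2 CPM used a prior count of 2. The 95% intervals are those of the edgeR fit. DESeq2 1.42.0 and limma 3.58.1 on log2 TPM with a pseudocount of 1 or 0.1 were alternatives, as were size factors, other filters, a replicate block, 1 shared fit and leaving out lines. The fitting code was tested on simulated data.

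The members and lists were chosen with earlier results of these data known. Values by line are given for the 10 members with the smallest p in each KO comparison, the 5 with the largest called differences between cell types, and the most abundant members of each role. A few more members by line, and Foxm1 and Rbl2 by line, were chosen after their values were seen. Of each other list, genes were named by smallest p. Exons of Top2a and Ncapd2 overlap small RNA or predicted genes on the same strand (Gm23451 for Top2a, Scarna10 and Gm28967 for Ncapd2). Those genes were not among the genes counted, so any reads from them may have been added to Top2a or Ncapd2.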

Additional observations from a re-analysis of the deposited data

Results flagged for a closer look

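The CPM of Aurka in KO MEFs was flagged because KO MEFs 2, at 65.4 CPM, lay far above the other 4 KO MEF lines (42.7 to 48.0 CPM) for the range of the group. Chance flags about 1 in 20 groups of this kind, and each of the 42 members was looked at in KO MEFs, so a single flag is within that rate. KO MEFs 2 was also among the 3 highest MEF lines in all 42 members.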

How the results depend on the processing

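Across the alternatives run, 0 mitosis genes were called with the KO in either cell type or in the interaction, and 0 were called higher in neurospheres than in MEFs. Of all genes, KO against WT MEFs gave 0 calls with a replicate block and 3 without WT MEFs 2 and KO MEFs 3 together. KO against WT neurospheres gave 7 with DESeq2, 2 with no filter, 3 without WT neurospheres 2 and KO neurospheres 3 together, and 0 to 2 as each line was left out. The interaction gave 3 with DESeq2. The median of the mitosis genes in KO against WT neurospheres was -1.37 without WT neurospheres 2 and KO neurospheres 3, and ran from -1.48 (without KO neurospheres 3) to 0.61 as each line was left out; that of the interaction ran from -1.52 to 0.52. Members called lower in WT neurospheres against WT MEFs numbered 17 in 1 fit of all 14 libraries and 18 to 33 as each line was left out. In KO neurospheres against KO MEFs they numbered 10 with no filter, 37 and 34 on TPM with a pseudocount of 1 and 0.1, and 7 to 40 as each line was left out, with medians from -3.39 to -1.39. With a replicate block 3266 genes were called there. The cause was not tested, beyond the fewer samples in a fit with lines left out.

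The labels state no pairing by replicate number, and correlations of deviations over all genes cannot decide whether lines share an origin. Deviations of same-numbered lines correlated at -0.589 to 0.0286 in MEFs and -0.108 to 0.223 in neurospheres, where 2 of 6 lines correlated best with their own number. The highest correlation of any pair was 0.747, between WT MEFs 2 and KO MEFs 3, which have different numbers. Both lines also had high levels of the mitosis genes, and what they share was not tested. The replicate block changed the sign of Hmgb2 in MEFs (0.024) and of Cks2 in neurospheres (-0.014), neither called. In KO against WT MEFs, leaving out each line gave log2 fold changes of -0.79 to 0.26 for Nusap1 and -0.40 to 0.019 for Hmgb2, positive without WT MEFs 2. In KO against WT neurospheres it gave -1.06 to 1.55 for Aurkb, -0.066 to 0.41 for Smc4, -0.58 to 1.03 for Kif20a, -1.27 to 1.26 for Bub1b, -1.32 to 1.15 for Nuf2, -1.50 to 1.33 for Bub1, -1.13 to 0.98 for Nusap1, -0.13 to 0.23 for Bub3 and -1.31 to 1.105 for Cks2, negative for all 9 without KO neurospheres 3. Without WT neurospheres 2 and KO neurospheres 3 together the values were -1.16 for Aurkb, -0.28 for Kif20a, -1.31 for Bub1b, -1.25 for Nuf2, -1.53 for Bub1, -0.96 for Nusap1, -0.061 for Bub3 and -1.30 for Cks2. On TPM with a pseudocount of 1 and 0.1 they were -0.0089 and -0.0094 for Smc4, -0.011 and -0.27 for Bub1b, -0.26 and -0.64 for Nuf2, -0.027 and -0.42 for Bub1, -1.24 and -1.43 for Nusap1, -0.0087 and -0.0095 for Bub3 and -0.36 and -0.41 for Cks2. The cause of these reversals was not tested. Among members called between cell types, Cdk1 lost its call in WT lines with no filter (edgeR adjusted p = 0.094) and in 1 fit of all 14 libraries (0.058), and in KO lines Ect2 (0.076) and Hmmr (0.089) lost theirs with no filter and Aurka (0.077) with the replicate block. In KO neurospheres 2, the shallowest library, 16 members had at most 3 counts, which limits how far a fall can be measured there.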
